A study of Arabidopsis thaliana with 24 samples.

Results

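The genes described here are 10 glutamate receptor-like channel genes (GLR) of Arabidopsis thaliana, GLR1.1, GLR1.2, GLR1.3, GLR2.5, GLR2.7, GLR2.8, GLR2.9, GLR3.3, GLR3.4, and GLR3.6. They were chosen by gene identifier, with earlier results of these data known, from 37813 genes in the table of read counts. All 10 passed the limit on low counts and were among the 20094 protein-coding genes tested. The RNA came from whole rosettes of phot1, phot2, and phot1phot2, which lack one or both phototropin blue light receptors, and of the wild type (Col-0 gl1). All lines, the wild type included, carry the gl1 mutation and so form no leaf trichomes. Rosettes were taken either 30 min past a UV-C dose of 100 mJ cm-2 or from untreated plants of the same genotype, which gives 8 groups of 3 biological replicates and 24 libraries. A replicate pooled at least 4 rosettes grown in short days. The labels give an age of 4 weeks, while the methods of the study state a younger age for the RNA samples. Each mutant is a line of its own, so a mutation and any other difference between the lines cannot be told apart. The wild-type libraries of a treatment serve all 3 mutants, so comparisons with the wild type share them.

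GLR proteins are plant relatives of the ionotropic glutamate receptors of animals. They are ligand-gated cation channels that open to amino acids and let calcium into the cytosol, and the family falls into clades numbered 1, 2, and 3. In leaves, GLR3.3 and GLR3.6 carry the electrical and calcium signals that travel from a wounded leaf to its neighbors, and clade 2 genes of the GLR2.7 cluster act in calcium entry during immune responses to microbial patterns.

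The libraries held 20897905 to 28723145 counted reads after UV-C (median 24570600) and 33200727 to 41902444 reads without treatment (median 38155600), so the treatments did not overlap in depth. Levels are given as CPM, reads of a gene relative to the library total, with TMM scaling (trimmed mean of M values) and the reads of the tested genes as the total. PHOT1 stood at 110 to 175 CPM in the 12 libraries of phot1 and phot1phot2, against 218 to 329 CPM in the other 12. PHOT2 stood at 220 to 282 CPM in the 12 libraries of phot2 and phot1phot2, against 340 to 454 CPM in the other 12, so both genes went with the labels. The root hair markers EXPA7 and SHV2 had at most 4 reads in any library, and GL1 (MYB0) at most 20 reads. In the non-treated plants, the summed level of 5 morning clock genes was 818 to 1676 CPM in the 9 mutant libraries, against 532 to 892 CPM in the wild type, and that of 6 evening clock genes was 127 to 202 CPM in the mutants, against 224 to 243 CPM in the wild type. After UV-C the evening clock sum was 40.5 to 54.9 CPM in the mutants, against 65.1 to 67.3 CPM in the wild type, without overlap. The morning clock sum overlapped there, at 1212 to 1466 CPM in the mutants and 1234 to 1262 CPM in the wild type. The part of the clock genes in the results below was not tested.

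The order of the genes on the chromosomes matters for what follows, because 5 of the 10 lie in tandem. GLR1.2 (AT5G48400, chr5:19616066-19619508, plus strand) ends 758 bases before GLR1.3 (AT5G48410, chr5:19620267-19623425, plus strand). Both act together in chilling tolerance through jasmonate, and GLR1.2 also shapes calcium entry at the pollen tube tip. GLR2.9 (AT2G29100, chr2:12501092-12504944), GLR2.8 (AT2G29110, chr2:12506795-12510624), and GLR2.7 (AT2G29120, chr2:12511246-12515947) follow each other on the minus strand, with 1850 and 621 bases between them. GLR1.1 (AT3G04110, chr3:1077236-1080504, plus strand), known for roles in carbon and nitrogen balance and abscisic acid responses, and GLR2.5 (AT5G11210, chr5:3571020-3574817, minus strand) stand apart. The clade 3 members are GLR3.3 (AT1G42540, chr1:15973054-15976813), GLR3.4 (AT1G05200, chr1:1504941-1509152), a channel gene that responds to touch and cold, and GLR3.6 (AT3G51480, chr3:19100676-19104844), all on the plus strand. Positions are those of the Araport11 annotation, and the start and end of every member were the same in the RefSeq annotation of TAIR10.1.

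Of all 76-base windows in the exons of a member, a second exact match in the genome was found for 11 of 3279 windows of GLR2.5 and for none of the other 9 members. Of the members, 3 share exon bases with other genes, and reads there could not be assigned or could come from the other strand. GLR3.4 shares 420 of its 3783 exon bases, GLR2.5 shares 172 of 3504, and GLR3.3 shares 9 of 3428.

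The 250 bases before the annotated gene start are shown for the 5 members that passed the test in some comparison, and for GLR3.4, whose libraries overlapped with the wild type in every mutant and treatment. They were read from the RefSeq genome TAIR10.1 and are written 5' to 3' on the strand of the gene. The windows are chr5:19615816-19616065 (plus strand) for GLR1.2, chr5:19620017-19620266 (plus) for GLR1.3, chr5:3574818-3575067 (minus) for GLR2.5, chr2:12515948-12516197 (minus) for GLR2.7, chr2:12504945-12505194 (minus) for GLR2.9, and chr1:1504691-1504940 (plus) for GLR3.4. Capitals mark matches on either strand to TTGAC, the core of the W-box bound by WRKY factors, and to TGACG, the core bound by TGA factors of the bZIP family. A TGACG match can overlap a TTGAC match, as it does in GLR2.7. The GLR2.5 window overlaps another annotated gene, AT5G01865.
GLR1.2: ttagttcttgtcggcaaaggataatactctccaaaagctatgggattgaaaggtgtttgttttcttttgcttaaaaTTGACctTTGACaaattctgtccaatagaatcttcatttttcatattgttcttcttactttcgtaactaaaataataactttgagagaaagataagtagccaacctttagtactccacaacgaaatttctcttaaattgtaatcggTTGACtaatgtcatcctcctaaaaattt
GLR1.3: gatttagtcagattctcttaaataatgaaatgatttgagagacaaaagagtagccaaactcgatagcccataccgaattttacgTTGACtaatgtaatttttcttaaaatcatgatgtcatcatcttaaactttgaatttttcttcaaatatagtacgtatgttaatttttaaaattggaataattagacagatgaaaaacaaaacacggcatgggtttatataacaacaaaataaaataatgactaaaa
GLR2.5: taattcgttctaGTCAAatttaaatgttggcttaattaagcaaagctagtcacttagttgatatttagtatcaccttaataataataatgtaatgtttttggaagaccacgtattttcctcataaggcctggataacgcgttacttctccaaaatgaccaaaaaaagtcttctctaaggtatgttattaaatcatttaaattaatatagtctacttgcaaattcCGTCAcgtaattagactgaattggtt
GLR2.7: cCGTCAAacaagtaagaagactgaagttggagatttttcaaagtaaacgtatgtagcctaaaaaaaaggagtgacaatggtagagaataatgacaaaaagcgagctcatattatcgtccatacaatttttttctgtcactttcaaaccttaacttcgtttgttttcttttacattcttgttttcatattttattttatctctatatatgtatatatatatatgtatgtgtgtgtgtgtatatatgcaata
GLR2.9: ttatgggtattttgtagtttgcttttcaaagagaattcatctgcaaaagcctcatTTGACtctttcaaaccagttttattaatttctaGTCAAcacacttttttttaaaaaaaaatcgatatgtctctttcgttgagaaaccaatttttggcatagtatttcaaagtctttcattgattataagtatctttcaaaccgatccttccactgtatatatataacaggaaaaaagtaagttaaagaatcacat
GLR3.4: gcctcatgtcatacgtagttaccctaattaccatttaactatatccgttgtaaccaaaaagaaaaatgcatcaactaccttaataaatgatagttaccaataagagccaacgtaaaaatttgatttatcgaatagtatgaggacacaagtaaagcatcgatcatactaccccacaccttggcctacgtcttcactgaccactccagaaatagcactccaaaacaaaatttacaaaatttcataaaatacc

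TTGAC was found in the windows of all 7 members of clades 1 and 2, with 3 matches in GLR1.2, 2 each in GLR1.1 and GLR2.9, and 1 each in GLR1.3, GLR2.5, GLR2.7, and GLR2.8. It was found in none of the 3 windows of clade 3. Of 20091 windows of the same length before tested genes, 45% held it. TGACG was found before GLR2.5 and GLR2.7, and in 19.3% of all windows. The G-box CACGTG (7.39% of all windows) and the evening element AAATATCT (4.98%) were not found before any member. These matches describe the letters only, and binding was not measured.

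Per kilobase of exon, the 10 genes fell into a high and a low tier. In the non-treated wild type, GLR3.4 was highest at 14.7 ± 0.40 CPM per kb (mean ± SD, n = 3, here and below), followed by GLR3.3 (6.48 ± 0.20), GLR1.1 (5.0 ± 0.23), GLR2.7 (4.83 ± 0.16), and GLR3.6 (3.1 ± 0.45). GLR1.1 and GLR2.7 overlapped in their ranges, and the other neighbors in this tier did not. The low tier began with GLR2.8 (0.555 ± 0.12), GLR1.3 (0.180 ± 0.086), and GLR1.2 (0.124 ± 0.025). GLR2.5 (0.0488 ± 0.039) and GLR2.9 (0.0414 ± 0.017) were lowest and overlapped, as did GLR1.3 and GLR1.2. No library placed a low-tier gene above GLR3.6. In phot2 after UV-C, GLR2.7 (6.89 ± 0.79) reached the range of GLR3.3 (6.90 ± 0.40), while in the wild type after UV-C it stood at 2.7 ± 0.34, below GLR3.6 (3.25 ± 0.17).

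**Figure D1:**
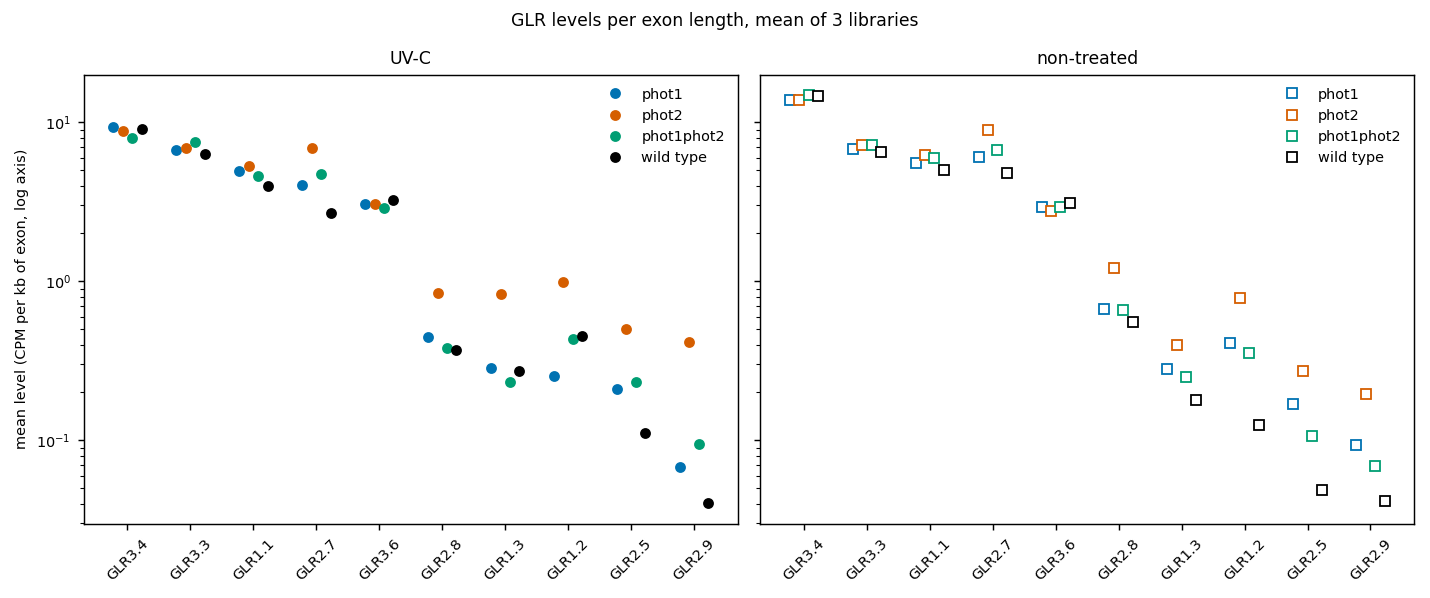
Mean level of each GLR gene in CPM per kb of exon on a log axis, in 3 libraries per point, ordered by the non-treated wild type. UV-C is on the left and non-treated on the right, with 1 color per genotype. GLR3.4, GLR3.3, GLR1.1, GLR2.7, and GLR3.6 form the high tier in every group, and phot2 (orange) is the highest point for each gene of the low tier.

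The comparison of phot2 with the wild type asks whether GLR transcript levels differ in plants without the second phototropin. Without treatment, 2 members were called higher in phot2, GLR1.2 and GLR2.5, and none lower. Calls needed both an adjusted p (Benjamini-Hochberg, edgeR quasi-likelihood test) under 0.01 and a log2 fold change (log2FC) over 1 in size, and 0.831% of all tested genes were called here. GLR1.2 had 2.11, 1.76, and 3.52 CPM in phot2, against 0.317, 0.472, and 0.380 CPM in the wild type. Every phot2 library was above every wild-type library, with a log2FC of 2.65 ± 0.45 (SE) and an adjusted p of 0.00109 (edgeR). GLR2.5 had 0.945, 0.634, and 1.27 CPM in phot2, against 0.136, 0.323, and 0.0542 CPM in the wild type. This is a log2FC of 2.43 ± 0.43 with an adjusted p of 0.00151, resting on 27 to 50 reads in phot2 and 2 to 13 in the wild type. The call on GLR2.5 was lost without phot2 replicate 3 (adjusted p = 0.0127, edgeR), without wild-type replicate 1 (0.0128), and in a fit of these 2 groups alone (0.0389), and without wild-type replicate 2 its log2FC was 3.22.

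The tandem genes of clade 2 were not called without treatment. GLR2.7 had 23.6, 26.2, and 34.8 CPM in phot2, against 15.2, 14.7, and 15.7 CPM in the wild type. Its adjusted p was 0.000484 (edgeR), and its log2FC of 0.89 ± 0.14 stayed under the limit on size. By the adjusted p alone, 3 members and 2.1% of all tested genes passed. GLR2.8 had 2.47, 2.63, and 5.81 CPM in phot2 against 1.61, 2.06, and 1.33 CPM in the wild type (log2FC 1.12 ± 0.27, adjusted p = 0.0156), and was not called. GLR2.9 had 0.337, 0.352, and 0.994 CPM in phot2, against 0.0679, 0.124, and 0.163 CPM in the wild type (log2FC 2.22 ± 0.53, adjusted p = 0.0159). Replicate 3 of phot2 was the highest of its group for each of GLR1.1, GLR1.2, GLR1.3, GLR2.5, GLR2.7, GLR2.8, and GLR2.9. GLR1.3 had 0.9, 0.845, and 1.68 CPM in phot2 against 0.476, 0.298, and 0.786 CPM in the wild type (log2FC 1.13 ± 0.39, adjusted p = 0.1), and GLR1.1 had 16.7, 17.1, and 20.8 CPM in phot2 against 14.2, 15.3, and 14.1 CPM in the wild type (log2FC 0.32 ± 0.09, adjusted p = 0.0371). Without phot2 replicate 1, GLR1.2, GLR2.5, GLR2.7, GLR2.8, and GLR2.9 were called, and without phot2 replicate 3 only GLR1.2 was. DESeq2 called 4 members, adding GLR2.8 and GLR2.9, and the likelihood ratio test called 3, adding GLR2.9.

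After UV-C, 3 members were called higher in phot2 and none lower, against 2.06% of all tested genes. GLR2.7 had 21, 19.6, and 24.4 CPM in phot2, against 7.58, 9.66, and 8.21 CPM in the wild type (edgeR log2FC 1.35 ± 0.16, adjusted p = 5.78e-06). The 2 groups were far apart, and the call held under each of the 33 other settings tried. Of these, 24 left out 1 library, in most cases of a group not compared here. The setting of an adjusted p under 0.05 with no limit on size keeps every call by construction. The call also held without each library of the 2 groups, in DESeq2, and in the likelihood ratio test. GLR2.9 had 1.48, 1.19, and 0.896 CPM in phot2, against 0.234, 0, and 0.110 CPM in the wild type (log2FC 3.32 ± 0.61, adjusted p = 0.000686). This is the largest log2FC of any member, but it rests on 21 to 28 reads per library in phot2 and on 5, 0, and 2 reads in the wild type, where the count of 0 allows up to 3 reads or 0.14 CPM. Without wild-type replicate 1 the log2FC was 4.43, without wild-type replicate 2, the library at 0, it was 2.72, and GLR2.9 was called in both fits. GLR2.5 had 2.38, 1.34, and 1.54 CPM in phot2, against 0.609, 0.280, and 0.276 CPM in the wild type (edgeR log2FC 2.14 ± 0.43, adjusted p = 0.00131). Its call was lost without wild-type replicate 2 (adjusted p = 0.0109).

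GLR1.3 missed the threshold after UV-C by a small margin. It had 3.55, 1.79, and 1.84 CPM in phot2, against 0.936, 0.933, and 0.496 CPM in the wild type (edgeR log2FC 1.57 ± 0.40, adjusted p = 0.01003). DESeq2 and the likelihood ratio test with robust dispersions each called 5 members, adding GLR1.3 and GLR2.8, and so did the main test without non-treated phot2 replicate 3. GLR1.3 alone was added with RLE factors and with no filter on low counts, which gave 4 members each. GLR2.8 had 3.34, 2.04, and 2.18 CPM in phot2, against 0.936, 1.21, and 1.16 CPM in the wild type (log2FC 1.18 ± 0.33, adjusted p = 0.0171). GLR1.1 had 15.3, 14.8, and 16.5 CPM in phot2 and 11.3, 11.7, and 11.9 CPM in the wild type, a log2FC of 0.42 ± 0.10 (adjusted p = 0.00595) that is under the limit on size. GLR1.2 had 5.24, 1.89, and 2.22 CPM in phot2 and 1.45, 1.77, and 1.05 CPM in the wild type (log2FC 1.1 ± 0.43, adjusted p = 0.0836), where the wild type was itself higher than without treatment. By the adjusted p alone, 4 members passed, against 8.28% of all tested genes.

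In both treatments the 7 members of clades 1 and 2 had all 3 phot2 libraries above all 3 wild-type libraries, and no clade 3 member did. The same held for 12.7% of all tested genes without treatment and 15.2% after UV-C. The median log2FC was 1.00 over the 10 members without treatment, against -0.01 over all tested genes, and 1.14 after UV-C, against -0.00323 over all tested genes. For clade 2 alone the 4 members ranged over log2FC 0.89 to 2.43 without treatment and 1.18 to 3.32 after UV-C. Tandem genes are not independent of each other. These values cover the chosen members only, which were chosen with earlier results of these data known. Over the 6 other GLR genes tested, the median log2FC in phot2 was -0.04 without treatment and 0.05 after UV-C. GLR1.4 of clade 1 and GLR2.1 of clade 2, outside the 10, were tested and not called in phot2.

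**Figure D2:**
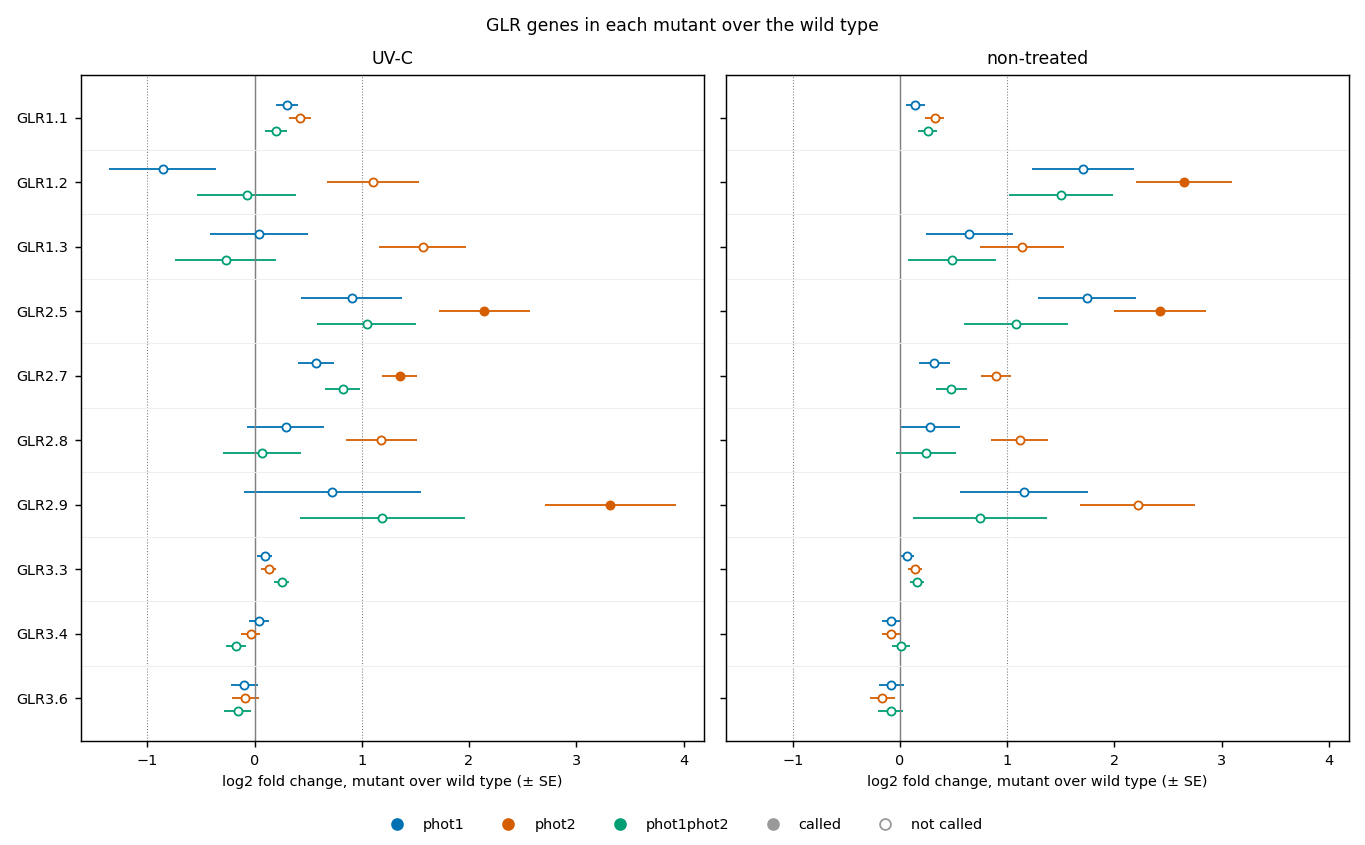
Log2FC of each GLR gene in each mutant over the wild type (± SE, 3 against 3 libraries), after UV-C on the left and non-treated on the right. Filled points were called and dotted lines mark the limit on size. The phot2 points of clades 1 and 2 lie right of 0, up to 3.32 for GLR2.9 after UV-C, and the clade 3 points lie near 0.

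Clade 3 stood apart from this. GLR3.3 had 22.8, 24.2, and 26.6 CPM in phot2, against 23, 21.8, and 21.9 CPM in the wild type without treatment, and the groups overlapped. The 95% interval of its log2FC was 0.00 to 0.28. GLR3.6 had 10.8, 10.3, and 9.86 CPM in phot2 and 11.1, 10.2, and 13.4 CPM in the wild type. For GLR3.4 and GLR3.6 the log2FC in non-treated phot2 was -0.08 ± 0.08 and -0.17 ± 0.12. After UV-C the log2FC of the 3 genes in phot2 ranged from -0.09 to 0.13. The largest clade 3 value against the wild type was that of GLR3.3 in phot1phot2 after UV-C, with 24.6, 25.3, and 27.3 CPM against 22.5, 20.9, and 21.4 CPM in the wild type (edgeR log2FC 0.25 ± 0.07, adjusted p = 0.00817).

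In phot1, no member was called without treatment (0.124% of all tested genes) or after UV-C (0.0946%). In the edgeR test 3 members had an unadjusted p under 0.05 without treatment and 2 after UV-C. The share of all tested genes at this unadjusted cutoff was not counted, here and below, so such counts are descriptions only. The likelihood ratio test called GLR1.2 and GLR2.5 without treatment and none after UV-C, and DESeq2 called none in either. GLR1.2 had 1.18, 1.12, and 1.56 CPM in non-treated phot1, all above the 0.317 to 0.472 CPM of the wild type (log2FC 1.71 ± 0.48, adjusted p = 0.0822, edgeR). GLR2.5 had 0.441, 0.740, and 0.588 CPM in non-treated phot1, also without overlap with the wild type (log2FC 1.75 ± 0.46, adjusted p = 0.0596). After UV-C these 2 genes were at -0.86 ± 0.50 and 0.90 ± 0.47 on the log2 scale in phot1 over the wild type. The 2 members with an unadjusted p under 0.05 after UV-C were GLR1.1 and GLR2.7. For both, every phot1 library was above every wild-type library. GLR2.7 stood at 12.2 to 13.3 CPM in phot1 and 7.58 to 9.66 CPM in wild-type plants. Its log2FC was 0.57 ± 0.17, with an edgeR adjusted p of 0.0791. The log2FC of GLR1.1 was 0.302 ± 0.101, with an edgeR adjusted p of 0.131.

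In phot1phot2, no member was called without treatment (0.737% of all tested genes) or after UV-C (3.2%). At an unadjusted p under 0.05 there were 5 members without treatment and 3 after UV-C. Even the adjusted p was under 0.05 for 3122 and 7405 of the 20094 tested genes (edgeR). DESeq2 called none, and the likelihood ratio test called GLR1.2 without treatment and none after UV-C. Non-treated GLR1.2 had 0.533 to 1.6 CPM in phot1phot2, against 0.317 to 0.472 CPM in wild-type plants. Its log2FC was 1.5 ± 0.48, with an edgeR adjusted p of 0.0377. Non-treated GLR2.7 had 18.6 to 25.8 CPM, against 14.7 to 15.7 CPM in wild-type plants. Its log2FC was 0.48 ± 0.14, with an edgeR adjusted p of 0.0246. For non-treated GLR1.2, every library of each mutant was above every wild-type library. The smallest adjusted p was that of GLR2.7 after UV-C, with 14.3, 14.6, and 16 CPM in phot1phot2, while the wild type had 7.58, 9.66, and 8.21 CPM (log2FC 0.82 ± 0.16, adjusted p = 0.000571, edgeR). With GLR3.3, 2 members passed the adjusted p alone, against 24.2% of all tested genes.

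The mutants were compared with each other to see whether the pattern of phot2 differed from that of the other lines. After UV-C, GLR2.9 was higher in phot2 than in phot1, with 1.48, 1.19, and 0.896 CPM in phot2 against 0.0946, 0.251, and 0.235 CPM in phot1 (log2FC 2.59 ± 0.55, adjusted p = 0.00439, edgeR). GLR1.2 was also called higher, with 5.24, 1.89, and 2.22 CPM in phot2 against 0.473, 1.45, and 0.470 CPM in phot1 (log2FC 1.96 ± 0.46, adjusted p = 0.00911). These were 2 members, against 0.801% of all tested genes. The GLR1.2 call rests on a narrow margin, since it held in 13 of 33 other settings, and without phot2 replicate 1, the highest library, its adjusted p was 0.0835. Its log2FC was 2.7 without phot1 replicate 2 and 1.38 without that phot2 library. The GLR2.9 call was lost without any single phot1 library of that treatment (adjusted p 0.014 to 0.0283, edgeR). It was also lost without phot2 replicate 1 (0.0214) or 2 (0.0126). Among the fits without a library of these 2 groups, only the fit without phot2 replicate 3 kept the call.

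After UV-C, all 7 members of clades 1 and 2 had every phot1phot2 library below every phot2 library, as did 17.5% of all tested genes. GLR1.3 had 0.725, 0.850, and 0.434 CPM in phot1phot2, against 3.55, 1.79, and 1.84 CPM in phot2 (log2FC -1.83 ± 0.41, adjusted p = 0.0029, edgeR). GLR2.9 had 0.242, 0.400, and 0.173 CPM in phot1phot2, against 1.48, 1.19, and 0.896 CPM in phot2 (log2FC -2.12 ± 0.52, adjusted p = 0.00502). Both were called lower, which makes 2 members against 1.32% of all tested genes. GLR1.3 lost its call without phot2 replicate 1 (adjusted p = 0.0246), phot1phot2 replicate 1 (0.0113), or phot1phot2 replicate 3 (0.0222), and GLR2.9 without phot2 replicate 1 (0.0228) or 2 (0.0142) or phot1phot2 replicate 1 (0.0227) or 3 (0.0318). GLR2.7 had 14.3 to 16 CPM in phot1phot2 and 19.6 to 24.4 CPM in phot2 (log2FC -0.53 ± 0.15, adjusted p = 0.014).

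No member was called between phot1phot2 and phot1 after UV-C (1.08% of all tested genes), where 2 members had an unadjusted p under 0.05 and the likelihood ratio test and DESeq2 called none. Without treatment no member was called between any 2 mutants. All tested genes were called at 0.159% for phot2 over phot1, 0.0746% for phot1phot2 over phot1, and 0.239% for phot1phot2 over phot2. The members with an unadjusted p under 0.05 numbered 4, 0, and 5 in these comparisons (edgeR). DESeq2 called none, and the likelihood ratio test called only GLR2.5 in phot1phot2 over phot2, where it had 0.551, 0.267, and 0.295 CPM against 0.945, 0.634, and 1.27 CPM in phot2 (log2FC -1.35 ± 0.38, adjusted p = 0.0564, edgeR).

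**Figure D3:**
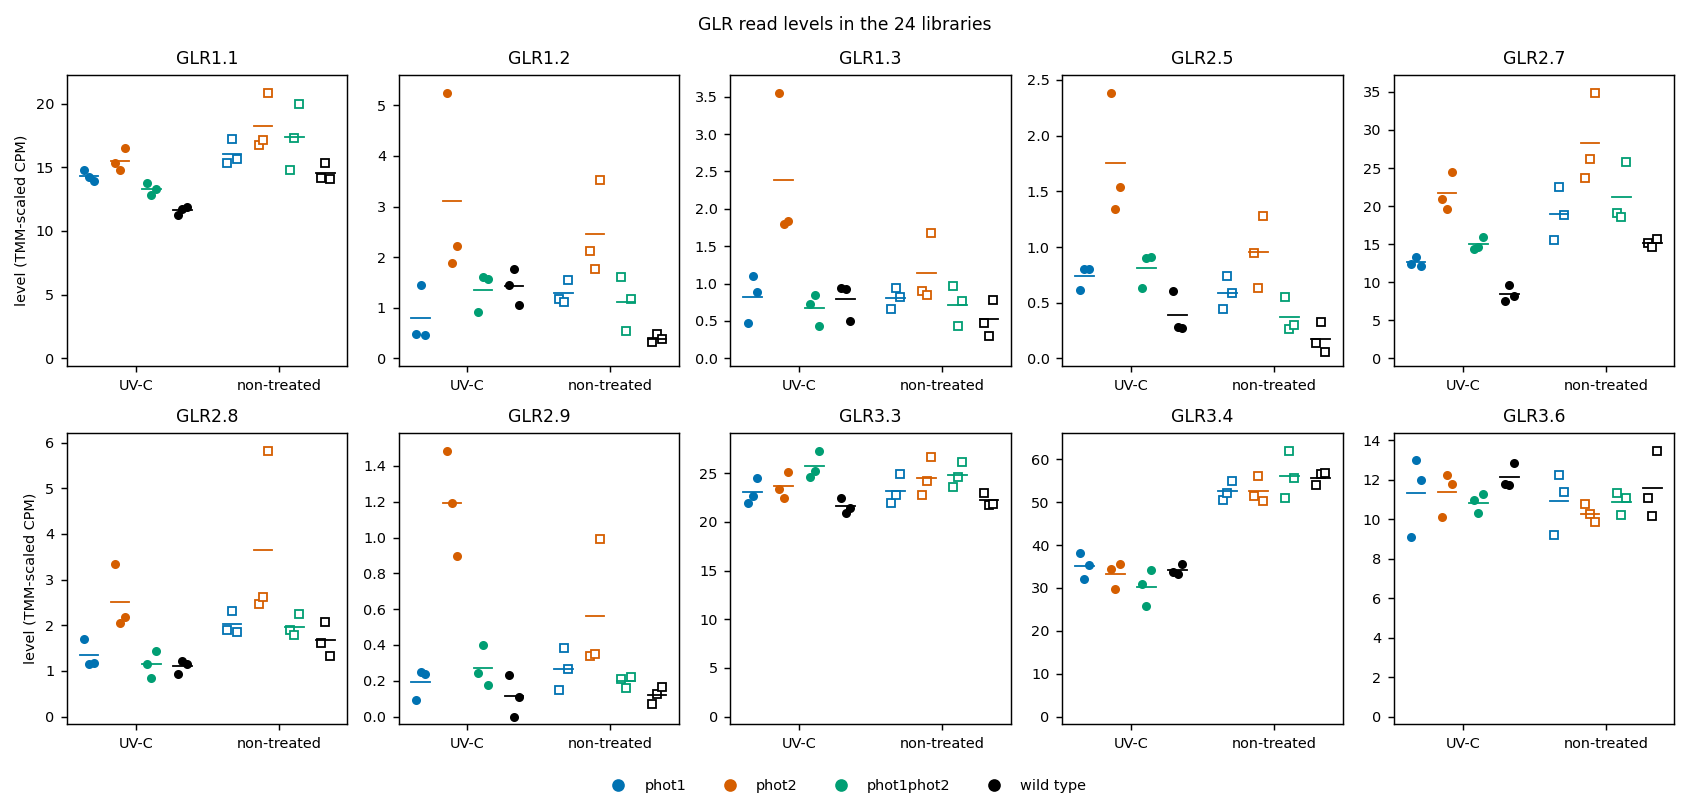
Level of each GLR gene in CPM (linear axis from 0) in every library, filled circles after UV-C on the left and open squares non-treated on the right, with a line at the mean of 3. Within each treatment the order is phot1, phot2, phot1phot2, and wild type. GLR2.7 lies at 19.6 to 24.4 CPM in phot2 after UV-C and at 7.58 to 9.66 CPM in the wild type, while GLR3.4 is lower after UV-C in every genotype.

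The response of the family at 30 min was read from UV-C over non-treated rosettes of 1 genotype at a time. In the wild type 1 member was called, GLR1.2, against 9.23% of all tested genes. It had 1.45, 1.77, and 1.05 CPM after UV-C, against 0.317, 0.472, and 0.380 CPM without treatment (log2FC 1.87 ± 0.50, adjusted p = 0.00373, edgeR). The call was lost without non-treated replicate 1 (adjusted p = 0.0171) or 3 (0.0119) and without UV-C replicate 1 (0.012) or 2 (0.0218). In phot1 (8.45% of all tested genes), phot2 (10.2%), and phot1phot2 (10.7%) no member was called. There 2, 6, and 5 members had an unadjusted p under 0.05. Even the adjusted p was under 0.05 for 9610, 10456, and 11023 of the 20094 tested genes (edgeR). DESeq2 called none in these 3 genotypes, and the likelihood ratio test called GLR2.9 in phot2 and GLR2.5 in phot1phot2. Without non-treated phot2 replicate 3, GLR1.3 (log2FC 1.44, adjusted p = 0.00426, edgeR) and GLR2.9 (1.77, 0.00194) were called higher after UV-C in phot2.

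GLR3.4 had a lower level after UV-C in every genotype, though by less than the limit on size. It had 38.1, 32.1, and 35.3 CPM after UV-C against 50.6, 52.2, and 54.9 CPM without treatment in phot1 (log2FC -0.58 ± 0.09), and 34.4, 29.8, and 35.5 CPM against 51.5, 56.0, and 50.2 CPM in phot2 (log2FC -0.66 ± 0.09). It had 30.8, 25.8, and 34.2 CPM after UV-C against 51.1, 61.9, and 55.6 CPM without treatment in phot1phot2 (log2FC -0.89 ± 0.09), and 33.6, 33.2, and 35.7 CPM against 54.0, 56.5, and 56.7 CPM in the wild type (log2FC -0.71 ± 0.09). The treatments did not overlap in any genotype, and the adjusted p was 1.34e-05, 2.15e-06, 2.74e-08, and 8.63e-07 in that order (edgeR). GLR2.7 had 7.58, 9.66, and 8.21 CPM after UV-C in the wild type, against 15.2, 14.7, and 15.7 CPM without treatment (log2FC -0.84 ± 0.16, adjusted p = 0.000163). In phot1, phot2, and phot1phot2 its log2FC was -0.59 ± 0.15, -0.38 ± 0.14, and -0.50 ± 0.15.

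GLR1.1 had a log2FC of -0.17 to -0.38 and GLR2.8 one of -0.53 to -0.77 across the 4 genotypes. GLR2.5 had positive values in all 4, at a log2FC of 0.32 for phot1, 0.88 for phot2 (adjusted p = 0.0366, edgeR), 1.13 in phot1phot2 (0.0274), and 1.16 in the wild type (0.0766). In phot2, GLR1.3 (log2FC 1.06, adjusted p = 0.0164) and GLR2.9 (1.09, 0.034) were also positive, and none of these values was called. By the adjusted p alone, 2 members passed in phot1, 1 in phot2, 3 in phot1phot2, and 4 in the wild type, against 35.2%, 39.8%, 43%, and 37.2% of all tested genes, so the share of members was close to that of all genes in the wild type and below it in the 3 mutants. GLR3.3 and GLR3.6 had log2FC values of -0.05 to 0.05 and -0.00499 to 0.15. All 10 members belong to the 5022 tested genes with the longest exon sequence, from 2380 bases. The median log2FC after UV-C of those genes was -0.12 in phot1, -0.14 in phot2, -0.16 in phot1phot2, and finally -0.14 in wild-type plants, against 0.15 to 0.18 in the 5027 genes of at most 1272 bases. The summed level of 3 guard cell markers was 31.4 to 36.8 CPM after UV-C and 50.3 to 70.9 CPM without treatment. That of 2 xylem markers was 14.2 to 23.9 CPM after UV-C and 6.86 to 11.3 CPM without treatment, and that of 2 phloem markers was 128 to 183 CPM after UV-C and 93.8 to 142 CPM without treatment. XCP1, a xylem protease gene, and CAB2, a chlorophyll-binding protein gene among the mesophyll markers, were called higher after UV-C in all 4 genotypes, with a log2FC of 1.08 to 1.54 and 1.94 to 2.95. Of the 3 mesophyll markers, only CAB2 was called. In phot1, phot2, and the wild type 1 of the 3 had a positive log2FC, and in phot1phot2 2 had. Their median log2FC was -0.09 in phot1, -0.17 in phot2, 0.12 in phot1phot2, and -0.25 in the wild type. The part of length and of these markers in the values of the members was not tested. UV-C and depth cannot be told apart, since all libraries of a treatment lie on one side.

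**Figure D4:**
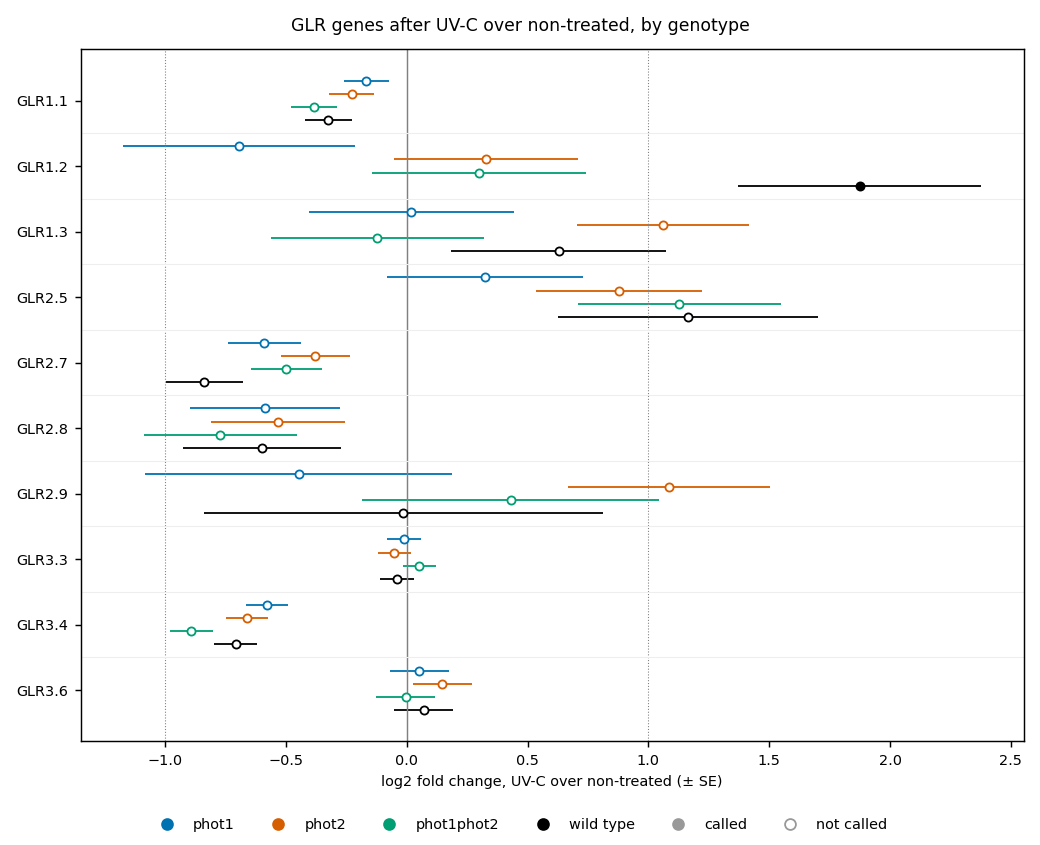
Log2FC of each GLR gene after UV-C over non-treated in each genotype (± SE, 3 against 3 libraries), with filled points for called genes and dotted lines at the limit on size. GLR1.2 in the wild type is the only filled point, at 1.87, and GLR3.4 lies between -0.89 and -0.58 in all 4 genotypes.

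Whether UV-C acted on a member to a different degree in a mutant than in wild-type plants was tested by interaction terms, and no member was called. All tested genes were called at 0.00498% for phot1, 0.368% for phot2, and 1.52% for phot1phot2. There were 1, 2, and 1 members with an unadjusted p under 0.05 (edgeR). DESeq2 called none, and the likelihood ratio test called GLR1.2 in phot1. For GLR1.2 the UV-C effect was lower than that of the wild type by 2.57 ± 0.69 in phot1, a 95% interval of -4.00 to -1.13 (adjusted p = 0.233). In phot2 its difference was -1.54 ± 0.63 (adjusted p = 0.241) and in phot1phot2 -1.58 ± 0.67 (adjusted p = 0.143). GLR1.2 had its lowest mean in the non-treated wild type, which enters all 3 differences. For GLR3.4 the 95% interval of the difference was -0.13 to 0.39 in phot1, -0.21 to 0.31 in phot2, and -0.44 to 0.08 in phot1phot2.

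The other 10 genes of the family were followed as a list. Of these, 6 passed the limit on low counts, and GLR2.2, GLR2.3, GLR2.4, and GLR2.6 had at most 4 reads in any library. The 6 include GLR1.4 of clade 1, at 6.69 to 11.2 CPM over all libraries, and GLR2.1 of clade 2, at 4.84 to 8.45 CPM. None of the 6 was called in any mutant against the wild type, where their median log2FC ranged from -0.29 to 0.05. In phot2, 2 of the 6 had a positive log2FC without treatment and 4 after UV-C. GLR3.5, whose splice forms go to mitochondria or chloroplasts, was the only one called after UV-C. It averaged 2.72 CPM after UV-C and 6.1 CPM without treatment in phot1 (log2FC -1.16 ± 0.14), 2.23 and 4.84 CPM in phot1phot2 (log2FC -1.11 ± 0.14), and 2.82 and 7.28 CPM in the wild type (log2FC -1.37 ± 0.14). In phot2 its means were 2.85 CPM after UV-C and 5.68 CPM without treatment, a log2FC of -0.99 ± 0.14 that stayed just inside the limit.

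Among other calcium channels, the cyclic nucleotide-gated channels (CNGC, 19 of 20 tested) gave 1 call in phot2 over the wild type after UV-C, CNGC3, with means of 12.7 CPM in phot2 and 5.32 CPM in the wild type (edgeR log2FC 1.25 ± 0.19, adjusted p = 0.000135). The other CNGC comparison with a call against the wild type was CNGC14, lower in phot1phot2 after UV-C (0.365 against 1.24 CPM, log2FC -1.77 ± 0.45). After UV-C, 1 CNGC gene was called higher and 0 lower in phot1, 1 and 1 in phot2, 1 and 1 in phot1phot2, and 4 and 1 in the wild type. CNGC19, a channel of the calcium response to herbivory, rose in every genotype, by a log2FC of 4.95 to 6.13. None of the 5 cornichon homologs, cargo receptors that help GLR proteins reach their membrane, was called in any mutant against the wild type or after UV-C, nor was any of the 6 other calcium-permeable channels.

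Single genes of the immune lists also differed in phot2. Of 5 early immune genes, FRK1, a receptor kinase gene induced by bacterial flagellin, was called higher in phot2 in both treatments, with means of 2.86 CPM in phot2 and 0.509 CPM in the wild type without treatment (log2FC 2.5 ± 0.37) and of 9.71 and 1.28 CPM after UV-C (log2FC 2.91 ± 0.35). Of 4 salicylic acid genes, BGL2, which encodes a glucanase also known as PR2, was called higher in phot2 after UV-C (51.1 against 14.1 CPM, log2FC 1.84 ± 0.43). The summed level of the salicylic acid genes in phot2 was 103 to 131 CPM after UV-C, against 49.6 to 91.4 CPM in the wild type, without overlap. Without treatment it was 60.4 to 112 CPM in phot2 and 70.6 to 107 CPM in phot1, against 35.1 to 57.8 CPM in the wild type, also without overlap. The early immune genes summed to 242 to 261 CPM in phot2 after UV-C, against 204 to 239 CPM in the wild type, without overlap. Without treatment the early immune genes summed to 48.7 to 82.2 CPM in phot2, against 18.8 to 50.1 CPM in the wild type, with overlap. Their part in the GLR values was not tested. In bulk rosettes, more cells of a type and more RNA per cell cannot be told apart. Without treatment, the marker sums in phot2 and the wild type were 107 to 110 CPM and 125 to 142 CPM for phloem, 7.62 to 9.18 CPM and 9.09 to 11.3 CPM for xylem, and 50.4 to 54.2 CPM and 52.4 to 59.2 CPM for guard cells. After UV-C the guard cell markers summed to 35.4 to 36.8 CPM in phot2, against 31.4 to 32.4 CPM in the wild type, without overlap, while phloem (134 to 153 CPM in phot2, 143 to 183 CPM in the wild type) and xylem (17.9 to 19.3 CPM in phot2, 16.7 to 23.9 CPM in the wild type) overlapped. CAB2, 1 of the 3 mesophyll markers, was called higher in all 3 mutants over the wild type without treatment (log2FC 1.02 to 1.84). No other mesophyll marker was called there. Over the 3 markers, the median log2FC was 0.12 (phot1), 0.01 (phot2), and 0.09 (phot1phot2). Their non-treated sum overlapped, at 29207 to 31573 CPM in phot2 and 27936 to 32194 CPM in the wild type. The part of these markers in the GLR values was not tested.

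Over the 24 libraries, the genes closest to GLR2.7 by Pearson correlation of log2 CPM were AT4G08850 (r = 0.94), AT1G35710 (0.93), and PIRL2 (0.92). The closest to GLR1.2 were CYP76C2 (0.87), PHT3;2 (0.87), and CHI (0.85), to GLR1.3 GSTU11 (0.84), AT3G55890 (0.83), and AT3G21080 (0.81), to GLR2.5 WRKY8, AT3G54150, and AT2G45220 (each 0.90), and to GLR2.9 LHT1 (0.90), AT1G51890 (0.89), and CRK13 (0.86). After the group means were taken out, r for these 15 pairs was 0.52 to 0.84. Within the family, GLR1.1 went with GLR2.7 (r = 0.91, and 0.76 within groups) and GLR2.8 (0.83 and 0.63), and GLR1.2 with GLR1.3 (0.76 and 0.63). GLR3.6 went with none of clades 1 and 2 (r of -0.42 to 0.13). These values describe 24 libraries that share group, depth, and harvest, and carry no test.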

How the data were processed

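RNA-Seq was made from whole rosettes of phot1, phot2, phot1phot2, and the wild type, after UV-C or non-treated. Groups came from the sample labels, and all 24 columns of the table were used. The authors made stranded poly-A libraries, aligned the reads with STAR 2.5.2b, and deposited the whole read count per gene from featureCounts (Subread 1.6.2) on Araport11 exons. Their command sets no strand, no pairs, and no multi-mapping reads. The libraries were sequenced from both ends, but the file header names only the first mate, so which mates were counted is not settled.

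The counts went into edgeR 4.0.16 and DESeq2 1.42.0 under R 4.3.3. A protein-coding gene entered if 6 or more libraries held 5 or more reads of it. Genes were scaled by TMM, and fitted with glmQLFit in 1 model of the 8 groups. Genes were called at an adjusted p under 0.01 over all tested genes and an absolute log2FC over 1. Alternatives were the likelihood ratio test with robust dispersions named in the methods of the study, DESeq2, RLE factors, no count filter, all gene types, only the groups compared, 2 replicate blocks, an adjusted p under 0.05 without a limit on size, and each library left out. Every member was named, and from each list at most 3 called genes of the largest log2FC. The members, the lists, and the tests were chosen with earlier results of these data known. The fit was tested on simulated data. The simulation changed only genes with higher mean counts than GLR1.2, GLR1.3, GLR2.5, and GLR2.9, so it does not cover calls at such counts. Correlations used a prior count of 2. No pair of replicates agreed within counting noise (chi-square per degree of freedom 4.37 to 23). The value of 3 reads for a count of 0 covers counting error only.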

Additional observations from a re-analysis of the deposited data

How the results depend on the processing

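Leaving out 1 library at a time gave 1 to 5 members called for phot2 over the wild type without treatment, 2 to 5 after UV-C, 0 to 1 for UV-C in the wild type, 0 to 2 for UV-C in phot2, 0 to 2 for phot2 over phot1 after UV-C, and 0 to 3 for phot1phot2 over phot2 after UV-C. The other 13 comparisons gave 0 in each such fit. The likelihood ratio test called 2 members in non-treated phot1 over the wild type, 1 in non-treated phot1phot2, 5 in phot2 after UV-C, 4 for phot2 over phot1 after UV-C, and 1 each for UV-C in phot2, UV-C in phot1phot2, the UV-C interaction of phot1, and non-treated phot1phot2 over phot2. DESeq2 called 4 members in non-treated phot2 over the wild type and 5 after UV-C. Among all tested genes, the likelihood ratio test called 128 in non-treated phot1 over the wild type, against 25 in the main test. For phot2 after UV-C it called 589, DESeq2 461, and the main test 414. DESeq2 called 254 in non-treated phot2, against 167 in the main test. Smaller shifts were 3 members by the likelihood ratio test for non-treated phot2 over the wild type (GLR2.9 added), 3 by DESeq2 for phot2 over phot1 after UV-C (GLR1.3 added), 3 by both tools for phot1phot2 over phot2 after UV-C (GLR2.8 added), and 4 with RLE factors or no count filter for phot2 over the wild type after UV-C (GLR1.3 added). In fits restricted to the 2 groups of a comparison, 1 member was called in non-treated phot2 over the wild type and 1 for phot2 over phot1 after UV-C. At an adjusted p under 0.05 with no limit on size, 6 and 2 members passed in non-treated phot2 and phot1phot2 over the wild type, 6 and 2 after UV-C, 2, 6, 5, and 4 for UV-C in phot1, phot2, phot1phot2, and the wild type, 1 for non-treated phot2 over phot1, 5 for phot2 over phot1 after UV-C, and 6 for phot1phot2 over phot2 after UV-C. Of the 20094 tested genes, 1016 and 3122 passed that cutoff in non-treated phot2 and phot1phot2 over the wild type, and 3208 and 7405 after UV-C. For UV-C in phot1, phot2, phot1phot2, and the wild type, 9610, 10456, 11023, and 9978 passed it. The cause of these shifts was not tested.

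Samples with the same replicate number deviated together in few pairs (16 of 84 pairs had a correlation over 0.1 for the number in the title, and 11 of 51 for that in the description). Pairs with different numbers were not compared, so whether the numbers pair the samples is not settled. With a replicate block by title, 1 member was called for phot2 over phot1 after UV-C. With the block by description, there was also 1 for that comparison, 1 for phot1phot2 over the wild type after UV-C, 0 for UV-C in the wild type, and 0 for phot1phot2 over phot2 after UV-C, where GLR1.3 and GLR2.9 had adjusted p values of 0.0103 and 0.0116 (edgeR). That block gave GLR1.2 an adjusted p of 0.015 for UV-C in the wild type, and called 4 members for phot2 over the wild type after UV-C (GLR1.3 added).

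Of 1485 values for pairs of a member and a comparison with an adjusted p under 0.05, none changed direction, 43 lost a call, and 69 gained one. The setting of an adjusted p under 0.05 with no limit on size used the cutoff that chose these pairs. There every pair not called in the main test gained a call by construction. Those gains are part of the 69 and say nothing on stability. For the other 145 pairs, 119 of 4785 values changed sign, in 48 pairs. GLR1.2, GLR1.3, GLR2.5, and GLR2.9 had at most 138 reads in any library, and no fit at another depth was made.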
